A study of Mus musculus with 24 samples.

Results

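The comparison of MSUS with Con males covered 12 of the 24 libraries of the study, which were chosen by sample title alone: 6 libraries of MSUS males and 6 of Con males. All were C57BL/6 mice by their labels, of C57BL/6J stock, killed at 50 days of age, and each library came from the nucleus accumbens (NAc) of both hemispheres of 1 male. MSUS males came from litters taken from the dam every day from birth to postnatal day 14, for 2 h in the sample labels and 3 h in the published protocol. The dam met restraint or forced swimming at an unforeseeable moment of the separation, and litters of Con males were left undisturbed. All the males then lived in cages with others of their own sex and group. The labels do not give the litter or the cage of an animal, so litter mates and cage mates among the 6 of a group cannot be told from unrelated males, and p-values measure only the spread between these 12 animals.

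The NAc is the ventral part of the striatum and weighs reward and aversion. Most of its neurons are GABAergic projection neurons of a direct and an indirect pathway, which carry different dopamine receptors and opioid peptides. Maternal separation with unpredictable maternal stress (MSUS) is a mouse model of early life stress, and the question put to these males is which transcripts of the NAc differ after it at this age, with no further treatment.

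RNA depleted of ribosomal RNA was sequenced, and read pairs on the sense strand were counted per gene. These counts summed to between 39923666 and 70575745 per male. The Y-linked gene Ddx3y had between 2858 and 3141 normalized counts in the 12 males and 0 in the 12 females of the study, and Xist had at most 20.7 in a male. A normalized count is a count divided by DESeq2's size factor of the library. The markers of striatal projection neurons were abundant in each male, with at least 23364 normalized counts of Ppp1r1b (DARPP-32, which integrates dopamine and glutamate signals). The markers of cortical excitatory neurons were not at 0. The vesicular glutamate transporter Slc17a7, which projection neurons of the NAc are not known to use, ranged from 1508 to 40712 normalized counts in Con males and from 1652 to 61383 in MSUS males. Con male 5 and MSUS male 6 held the 2 highest values.

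No gene passed the threshold between MSUS and Con males. Of 20691 genes tested by edgeR's quasi-likelihood test, 0 had a Benjamini-Hochberg adjusted p under 0.10 (0%), and the smallest adjusted p was 1.00. At an unadjusted p under 0.05, where 5% of genes are expected with no change, lay 191 genes (0.923%). Of these 67 were higher in MSUS males (0.324%) and 124 lower (0.599%). At that unadjusted p DESeq2 gave 304 genes and limma-voom 221, and neither had a gene past the threshold. The 6 values of one group lay wholly above those of the other for 8 genes (0.0387%), 4 higher in MSUS males and 4 lower (0.0193% each).

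The intervals show how large a difference the 12 males still allowed, gene by gene. Among the 14338 genes with a mean of at least 100 normalized counts, the median absolute log2 fold change was 0.034, the 95th percentile 0.15 and the median standard error 0.073. A 95% interval could be given for 14182 of them. It lay within 1.2-fold in either direction for 66.8% of these genes, within 1.5-fold for 94.2% and within 2.0-fold for 98.6%. The intervals of 48 genes left out 0. Differences inside these limits could not be seen with 6 animals per group.

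**Figure D1:**
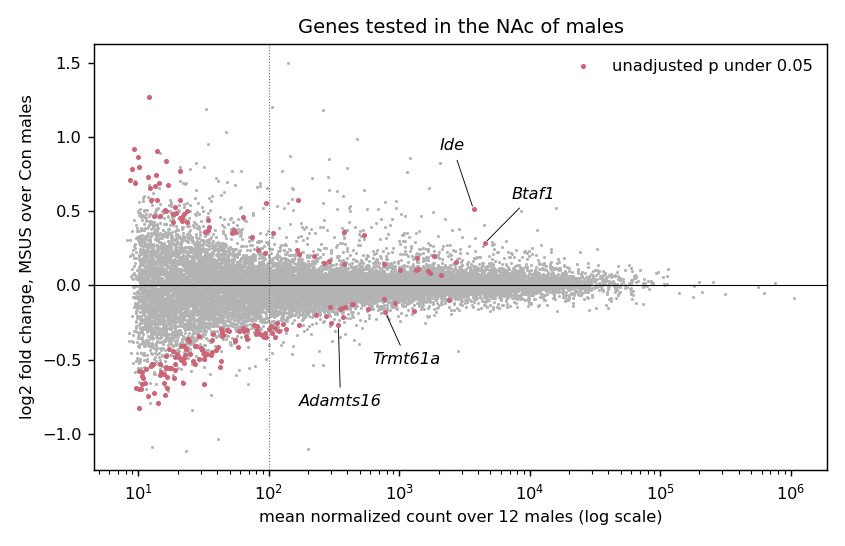
Log2 fold change of MSUS over Con males (vertical axis) against the mean normalized count over the 12 males (horizontal axis, log scale) for the 20691 genes tested. Red points are the 191 genes at an unadjusted p under 0.05, the dotted line marks a mean of 100, lines lead to Ide, Btaf1, Trmt61a and Adamts16, and no gene passed the threshold.

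Of the genes with a mean of at least 100 normalized counts, Btaf1 had the smallest p. Btaf1 (chr19:36926079-37012752 on GRCm38) encodes a regulator that removes the TATA-binding protein from promoters. It ranged from 3454.5 to 4503 normalized counts in Con males (median 4071) and from 4429.5 to 5712 in MSUS males (median 5001). The groups overlapped by a single Con male, replicate 2, whose value lay above that of 1 MSUS male, and 6 of 6 MSUS males lay above the Con median. The log2 fold change was 0.28 (95% interval 0.13 to 0.44, unadjusted p = 0.00138; Benjamini-Hochberg adjusted p = 1.00, edgeR's quasi-likelihood test). Btaf1 differed in the same direction in females, by a log2 fold change of 0.26 (adjusted p = 0.0177, edgeR's quasi-likelihood test, Benjamini-Hochberg). In females 25.1% of all genes passed the threshold, so that such a call was common there. As given below, no female call was left with a library covariate whose values did not overlap between the female groups.

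Of such genes higher in MSUS males, Ide had the next smallest p, while Trmt61a and Adamts16, both lower in MSUS males, came before it. Ide lies on the same chromosome as Btaf1 (chr19:37268743-37337852). It encodes insulin-degrading enzyme, a protease of insulin and other short peptides. In Con males 1 to 6 it had 2669.9, 3965, 2536, 2509, 2613 and 4039 normalized counts, and in MSUS males 1 to 6 it had 3798, 4049.7, 4116, 3809, 4055 and 6356. Con males 2 and 6 lay with the MSUS males, the other Con males well below all of them, and MSUS male 6 above all others. The log2 fold change was 0.51 (95% interval 0.15 to 0.87, unadjusted p = 0.00885 by the quasi-likelihood test of edgeR, Benjamini-Hochberg adjusted p = 1.00). Without MSUS male 6 it was 0.37 (unadjusted p = 0.0174).

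The genes around Btaf1 and Ide were then examined, after those values had been seen. Fgfbp3 (chr19:36917550-36919615), which encodes a carrier of fibroblast growth factors and neighbours Btaf1, ranged from 148 to 204 normalized counts in Con males (median 155) and from 182 to 221 in MSUS males (median 186). Its log2 fold change was 0.22 (95% interval -0.0048 to 0.45, unadjusted p = 0.0543). Con males 2 and 6 were the highest Con animals for this gene too.

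Other genes of that stretch did not have such values. The tankyrase gene Tnks2, just before Fgfbp3, had a log2 fold change of -0.013 (95% interval -0.11 to 0.089). Between Btaf1 and Ide, Cpeb3, which encodes an RNA-binding regulator of translation at synapses, had 0.039 (-0.084 to 0.16), and the ubiquitin ligase gene March5 had -0.012 (-0.15 to 0.13).

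Over all 24 animals of both sexes, Btaf1 and Fgfbp3 were the genes most like Ide among 14299 genes, by Pearson's r of log2 normalized counts (0.83 and 0.75). The next gene, Gm43305 on chromosome 14, had an r of 0.65. In the 12 males alone the values were 0.87 for Btaf1 and 0.89 for Fgfbp3. These are descriptions over animals of both groups and sexes, and whether their libraries were prepared together is not given. In females Ide also took low values in some animals of both groups: 2743 in Con female 5, 2564 in Con female 6 and 2536 in MSUS female 5, while 8 of the other 9 had at least 3849. As background, the number of genomic copies of Ide and Fgfbp3 is known to differ among mice sold as C57BL/6J, the source of the breeders here. Copy number was not measured in these animals, and its part in the levels was not tested.

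**Figure D2:**
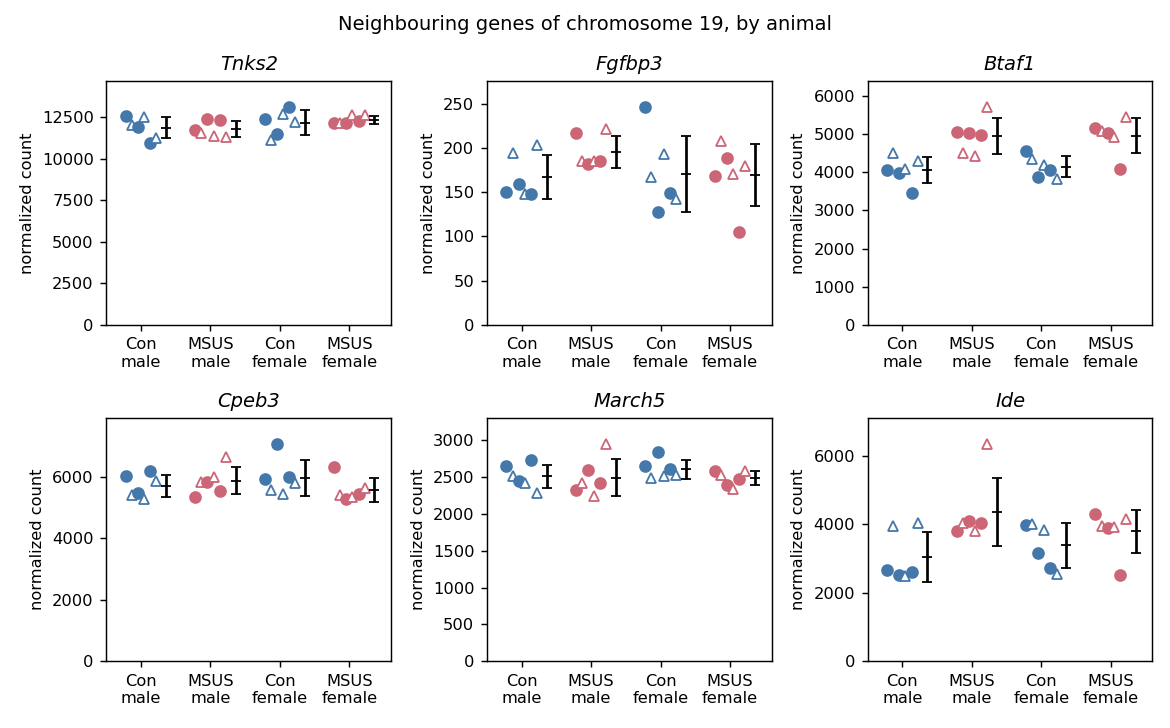
Normalized counts (vertical axes, from 0) of 6 neighbouring genes of chromosome 19 in each of the 24 animals, by group. Filled circles are odd and open triangles even replicate numbers, bars show the mean and SD (n = 6), and Fgfbp3, Btaf1 and Ide vary together over animals while Tnks2, Cpeb3 and March5 do not follow them.

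The other genes with small unadjusted p-values were scattered over functions and chromosomes, and none passed the threshold. Higher in MSUS males were Arid5b (a chromatin regulator, log2 fold change 0.16), Ftsj1 (an X-linked tRNA methyltransferase, 0.14), Bhlhe40 (a transcriptional repressor of the circadian clock, 0.20), Dusp4 (a phosphatase of MAP kinases, 0.36), Mid1 (an X-linked ubiquitin ligase, 0.34) and Exosc9 (an RNA exosome subunit, 0.11). Also higher were Plekhh2, Tmem19 and A930015D03Rik, which lies antisense to H2-T genes. Unadjusted p-values of these genes ran from 0.0182 for Arid5b to 0.0305 for Tmem19.

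Dusp4 shows how wide the spread behind these values was. It ranged from 276 to 369 normalized counts in Con males (median 339) and from 286 to 628 in MSUS males (median 412). MSUS male 1 lay among the Con males and the other 5 above all of them, with MSUS male 6 far above. Ftsj1 was tighter, at 674 to 796 in Con (median 729.8) and 747 to 866 in MSUS males (median 805.5), and 6 of 6 MSUS males lay above the Con median.

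Lower in MSUS males, with the smallest p, was Trmt61a, which encodes the catalytic subunit of a tRNA methyltransferase. It ranged from 781 to 912 normalized counts in Con (median 827) and from 674 to 793 in MSUS males (median 727), so that only the lowest Con male lay below the highest MSUS male. The log2 fold change was -0.18 (95% interval -0.29 to -0.071, unadjusted p = 0.00342, and adjusted p = 1.00 by Benjamini-Hochberg over edgeR's quasi-likelihood tests). Adamts16, a secreted metalloprotease, followed with -0.27 (unadjusted p = 0.00771).

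The other 10 lower genes were CAAA01118383.1, Tstd2, Plekhg2, Gm44950, the histone gene Hist1h2ae, Arhgef10l, the long non-coding RNA Carmn, the lysozyme gene Lyz2, Shisa2 and Ccdc77, with log2 fold changes from -0.35 for Hist1h2ae to -0.097 for Arhgef10l. Lyz2, expressed by macrophages and microglia, ranged from 135 to 214 normalized counts in Con (median 194) and from 137 to 183 in MSUS males (median 156). Con male 1 was the lowest of all, and the other 5 Con males lay above every MSUS male. The histone genes are near-identical copies, so that reads may be split or lost among them.

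Among the 8 genes whose groups did not overlap, only Umps, named here after its values were seen, had more than 134 normalized counts in a male. Umps, which makes uridine monophosphate, had 808 to 906 in Con (median 874) and 912 to 927 in MSUS males (median 921). Its log2 fold change was small, at 0.076 (unadjusted p = 0.0716). The others were Ido2, Fgf20, 4930524J08Rik and the antisense transcript Gm15952, all lower in MSUS males, and the pseudogenes Gm4149 and Gm5884 and the small nuclear RNA gene Gm25328, all higher.

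Genes of striatal projection neurons lay below 0 as a group in the pooled males, with 0 members past the threshold. All 13 members of the list shared by projection neurons had a log2 fold change below 0, with a median of -0.11, against 9988 of all 20691 genes and a median of 0.0028. Of the direct-pathway genes 6 of 7 lay below 0 (median -0.11), and of the indirect-pathway genes all 6 tested (median -0.14, of 7 listed). The members share neurons, so their directions are not independent. In such bulk tissue, fewer cells of a type and less RNA per cell cannot be told apart.

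Drd1, the dopamine receptor of direct-pathway neurons, ranged from 10607 to 17319 normalized counts in Con males (median 14932) and from 8199 to 16957 in MSUS males (median 13342). Its log2 fold change was -0.13 (95% interval -0.48 to 0.21, unadjusted p = 0.414). Drd2, the receptor of indirect-pathway neurons, ranged from 5314 to 9428 in Con (median 7301) and from 4184 to 7878 in MSUS males (median 7016), with a log2 fold change of -0.14 (-0.49 to 0.21). For both receptors the groups overlapped over most of their range, and MSUS male 6 was lowest of all males.

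The peptides of the same neurons had like values. The log2 fold change was -0.086 (95% interval -0.48 to 0.30) for Penk, the enkephalin precursor, -0.13 (-0.56 to 0.30) for Pdyn, the dynorphin precursor, and -0.11 (-0.45 to 0.23) for Tac1, the substance P precursor. Of the receptors that the opioid peptides bind, Oprk1 had -0.17 (-0.45 to 0.12) and Oprm1 -0.0030 (-0.34 to 0.34). In the dopamine list 13 of 16 tested members (of 17 listed) lay below 0, with a median of -0.051, and in the opioid list 6 of 8, with a median of -0.044. Both lists share genes with the projection neuron lists, such as Drd1, Drd2, Penk and Pdyn. Without MSUS male 6 it was 11 (median -0.017) and 4 (0.0032), and without Con male 5 it was 12 (-0.11) and 5 (-0.11). In libraries 7 to 12 and 19 to 24 the dopamine median was 0.11 and -0.21, and the opioid median 0.11 and -0.19.

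The dopamine synthesis gene Th ranged from 223 to 469 normalized counts in Con (median 398) and from 231 to 397 in MSUS males (median 346). The dopamine transporter Slc6a3, made by midbrain neurons, had between 11.1 and 34.1 in the 12 males. The groups overlapped for both, although 6 of 6 MSUS males lay below the Con median of Th.

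These medians moved with a few animals. Without MSUS male 6, 8 of the 13 shared projection neuron genes lay below 0 (median -0.020) and the indirect-pathway median was -0.032. Penk (0.029) and Pdyn (0.0094) then lay above 0. Without Con male 5, the lowest of the Con males for Drd1, Drd2 and Ppp1r1b, all 13 lay below 0 again and the median was -0.17. Without both of these males all 13 shared genes (median -0.074) and all 6 indirect-pathway genes (-0.11) lay below 0.

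**Figure D3:**
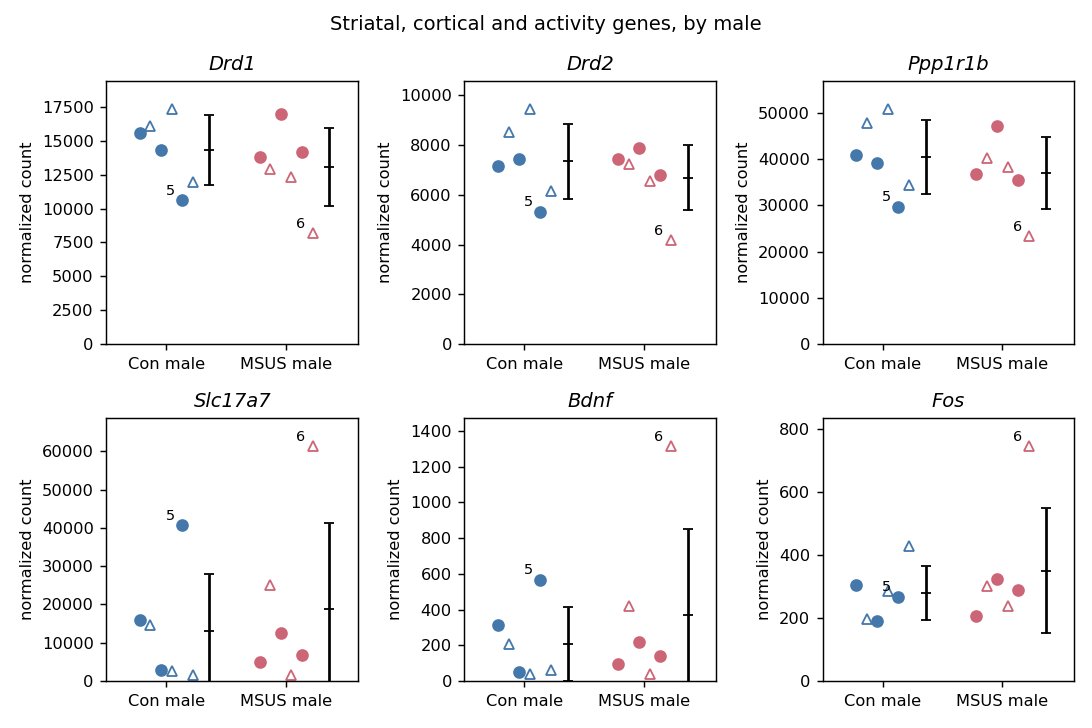
Normalized counts (vertical axes, from 0) of 3 striatal genes, the cortical marker Slc17a7, and Bdnf and Fos in each male. Filled circles are libraries 7 to 12, open triangles are libraries 19 to 24, bars show the mean and SD (n = 6, cut at 0), and the labelled Con male 5 and MSUS male 6 are low for the striatal genes and high for Slc17a7 and Bdnf.

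The largest axis of spread among the 12 males did not separate the groups. The first principal component of log2 CPM (counts scaled to the library total) held 38.5% of the variance, with MSUS male 6 at -56.7, Con male 5 at -37.7 and MSUS male 2 at -20.8 at one end. At the other end stood MSUS male 1 at 28.2 and Con male 3 at 27.4. The mean of MSUS minus that of Con males was -7.20 units (exact two-sided permutation test, p = 0.675, adjusted p = 0.983 over 17 measures; the smallest p this design allows is 0.00216). Genes with the strongest loading at the end of MSUS male 6 were Adcyap1, Slc30a3, Slc17a7, Rtn4rl2 and Neurod2, with Bdnf and Cck among the first 15. At the other end were the calcitonin receptor gene Calcr, Prlr, Gabrq, Igsf1 and Arhgap36.

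The list of cortical excitatory neuron markers moved with that axis. Its 12 members had a sum of 21644 to 79637 normalized counts in a Con male (median 35283) and 21805 to 115378 in an MSUS male (median 34242). Of the members 10 of 12 had a log2 fold change above 0, with a median of 0.12, but without MSUS male 6 only 2 of 12 did, with a median of -0.26. Without Con male 5 it was 10 of 12 with a median of 0.58, and without both it was 7 of 12 with a median of 0.050. No member was at 0 in any male. The part of these markers in the group differences was not tested beyond a fit with their score as a covariate, which lowered the common biological coefficient of variation from 0.160 to 0.108 and left 0 genes past the threshold.

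MSUS males varied more among themselves than Con males did. The median SD of log2 CPM over the genes with a mean of at least 100 was 0.14 in MSUS and 0.11 in Con males, and the SD was larger in MSUS males for 71% of genes. Without MSUS male 6 that share was 55%. No test of the spread was made, and genes are not independent of each other.

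The library numbers in the labels place the males in 2 sets that share no animal, numbers 7 to 12 (replicates 1, 3 and 5 of each group) and 19 to 24 (replicates 2, 4 and 6). The labels do not say whether the sets were prepared or sequenced apart. MSUS was therefore compared with Con within each set, with 3 males against 3. In libraries 7 to 12, 291 of 20654 genes had an unadjusted p under 0.05 (1.41%) and 1 passed the threshold (0.00484%). In libraries 19 to 24, 1498 of 21033 had an unadjusted p under 0.05 (7.12%), 681 of them higher and 817 lower in MSUS males, and 0 passed (0%).

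The gene that passed in libraries 7 to 12 was Ide, whose log2 fold change there was 0.61 with a standard error of 0.054 (Benjamini-Hochberg adjusted p = 0.0964, edgeR's quasi-likelihood test). It was 0.44 in libraries 19 to 24, with a standard error of 0.26 (adjusted p = 0.631). Btaf1 had 0.39 and 0.19. Both genes were picked by their p over the same males, so that a like sign in the 2 sets was largely fixed by that choice.

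Most genes had opposite directions in the 2 sets. Across the 14338 genes with a mean of at least 100, Pearson's r of the log2 fold changes was -0.75 and Spearman's rho -0.67, and 25.4% of genes had the same sign in both. The median absolute log2 fold change was 0.064 in libraries 7 to 12 and 0.092 in libraries 19 to 24, against 0.034 in all males. Of the 1096 such genes with an unadjusted p under 0.05 in libraries 19 to 24, 68 (6.20%) had the same sign in libraries 7 to 12. The genes are not independent, and no p is given across them.

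A test of the difference itself, the group-by-set term over the 12 males, had 0 of 21608 genes past the threshold (0%, smallest adjusted p = 0.502 by edgeR's quasi-likelihood test) and 2109 at an unadjusted p under 0.05 (9.76%). It was added after the data were seen. The opposition rested in large part on Con male 5. From means of log2 CPM r was -0.71, without Con male 5 it was -0.12, and without any one of the other males it lay between -0.79 and -0.44. Without both Con male 5 and MSUS male 6 it was -0.16.

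**Figure D4:**
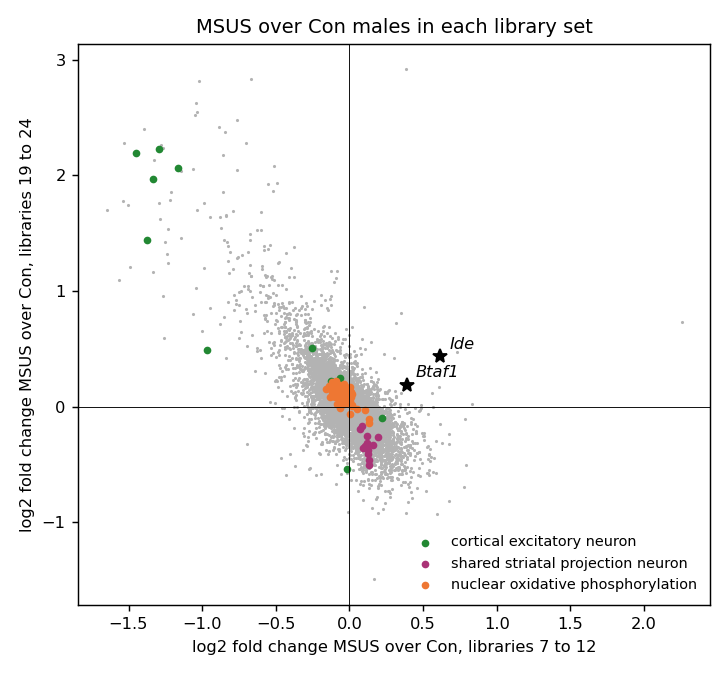
Log2 fold change of MSUS over Con males in libraries 19 to 24 (vertical axis) against libraries 7 to 12 (horizontal axis), for the 14338 genes with a mean of at least 100 normalized counts, with 3 males per group in each set. Most points lie along a falling diagonal (r = -0.75), with cortical markers at its upper left and striatal markers at its lower right, oxidative phosphorylation genes near the centre, and Ide and Btaf1 at the upper right.

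Most lists, neuronal or not, had medians of opposite sign in the 2 sets. All 13 shared projection neuron genes were higher in MSUS males in libraries 7 to 12 (median 0.12) and all 13 lower in libraries 19 to 24 (median -0.33). All 6 indirect-pathway genes did the same (0.12 and -0.38), and so did all 7 cholinergic interneuron genes (0.18 and -0.53), which include the acetylcholine-synthesizing enzyme Chat. The cortical list had medians of -1.03 and 0.97. The direct-pathway list was less uniform, with 5 of 7 members higher in libraries 7 to 12 and 5 of 7 lower in libraries 19 to 24. Medians also changed sign for mature oligodendrocyte (-0.034 and 0.096), microglia (-0.020 and 0.066) and Y-linked genes (0.047 and -0.082). Astrocyte medians were -0.043 and 0.0019. Endothelial medians kept their sign (-0.015 and -0.038). So did those of the GABA-A receptor, immediate early, transcription start and mediator, and cytosolic ribosomal protein lists.

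Drd1, Ppp1r1b and Slc17a7 followed their lists, but not every member did. Eya1 of the direct-pathway list had log2 fold changes of -0.16 in libraries 7 to 12 and 0.31 in libraries 19 to 24. Drd1 had a log2 fold change of 0.15 in libraries 7 to 12 and -0.44 in libraries 19 to 24. Ppp1r1b had 0.12 and -0.38. Slc17a7, at the other side, had -1.29 and 2.23.

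Other values of the libraries shifted with the sets as well. The share of uniquely mapped pairs assigned to no gene, which includes intronic and intergenic reads of the sense strand, was 34.7% to 40.6% in Con and 32.2% to 44.7% in MSUS males (exact two-sided permutation test of the means, p = 0.684, adjusted p = 0.983 over 17 measures). It was higher in MSUS than in Con males by 2.37 percentage points in libraries 7 to 12, and lower by a difference of -4.16 points in libraries 19 to 24. Nuclear long non-coding RNAs had list medians of 0.12 and -0.056 in these sets. The part of this share in the opposition was not tested by set. As a covariate over all the males it gave 0 calls, with 282 genes at an unadjusted p under 0.05.

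**Figure D5:**
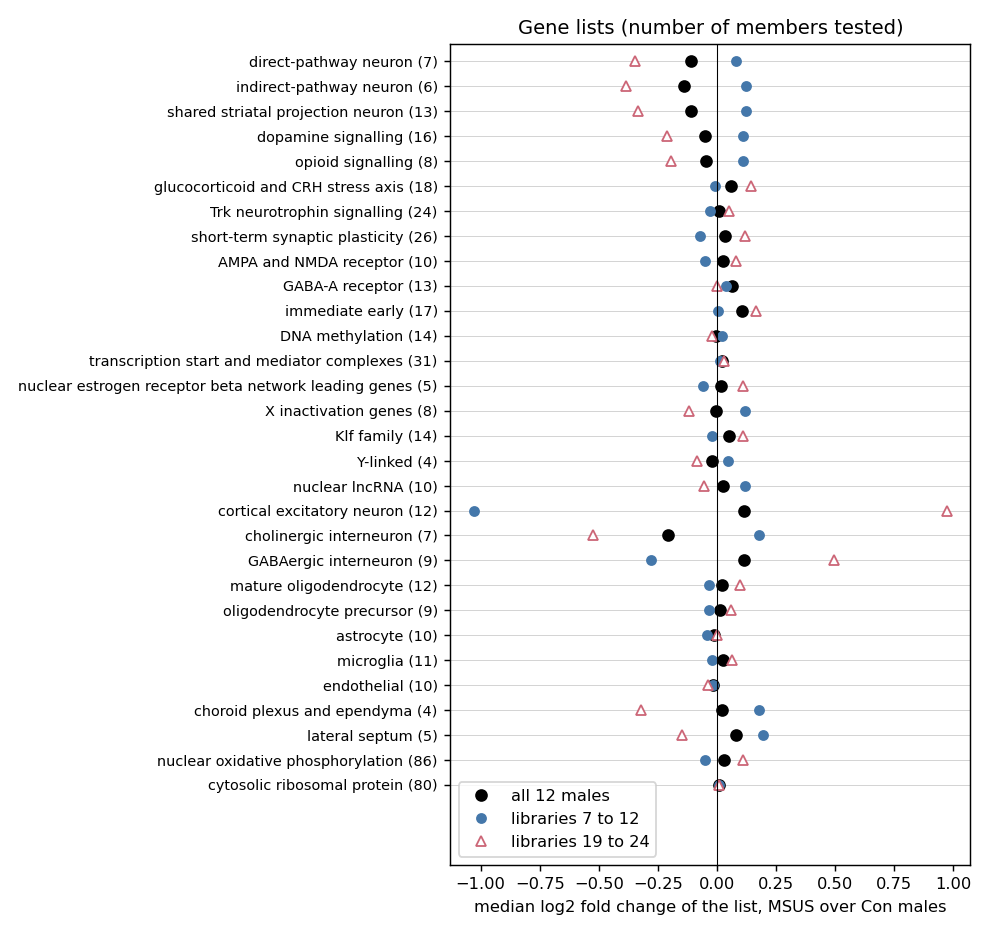
Median log2 fold change of MSUS over Con males (horizontal axis) for each of 30 gene lists, with the number of members tested in parentheses. Black circles are all 12 males, blue circles libraries 7 to 12 and open triangles libraries 19 to 24. The pooled medians lie between -0.21 and 0.12. For most lists, striatal, cortical and cholinergic ones among them, the 2 sets lie on opposite sides of 0.

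The stress hormone axis did not separate the groups. Of 18 tested members of the glucocorticoid and CRH list 13 lay above 0 (median 0.060), and 0 passed the threshold. The count above 0 was 10 without MSUS male 6 (median 0.0091), 12 without Con male 5 (0.079) and 11 without both (0.019). Nr3c1, the glucocorticoid receptor, ranged from 6103 to 7002 normalized counts in Con (median 6688) and from 5890 to 7530 in MSUS males (median 6635), with a log2 fold change of 0.011 (95% interval -0.11 to 0.13). The intervals of Nr3c1 and of Fkbp5, a chaperone that glucocorticoids induce, were narrow, and Fkbp5 had -0.043 (-0.20 to 0.11).

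Crh, the stress peptide, had the smallest p of the list. It ranged from 69.3 to 205 normalized counts in Con (median 104) and from 90.3 to 260 in MSUS males (median 149), with a log2 fold change of 0.56 (95% interval -0.10 to 1.22, unadjusted p = 0.0910). That difference came from libraries 19 to 24, where it was 1.18, against -0.085 in libraries 7 to 12. Its receptor Crhr1 had 0.099 (-0.19 to 0.39), and Oxtr, the oxytocin receptor, 0.068 with a wide interval of -0.82 to 0.96.

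In the list of Trk neurotrophin signalling, 14 of 24 tested members lay above 0, with a median of 0.0094. Bdnf, the ligand of Ntrk2, ranged from 38.3 to 566 normalized counts in Con (median 134) and from 38.9 to 1317 in MSUS males (median 179). The highest value of each group was that of Con male 5 and of MSUS male 6. The log2 fold change of 0.85 (95% interval -1.05 to 2.76) became -0.16 without MSUS male 6. Ntrk2 itself had 0.059 (-0.092 to 0.21), and the adaptor Frs2, with the smallest p of the list, 0.057 (-0.0078 to 0.12, unadjusted p = 0.0798). Frs2 was the tightest of these, at 3749 to 3854 in Con (median 3784) and 3842 to 4054 in MSUS males (median 3950), a small overlap.

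Lists of synaptic and activity genes had medians above that of all genes (0.0028), with 0 members past the threshold. Of 26 genes of short-term synaptic plasticity 19 lay above 0 (median 0.036), with Rab3gap1, a regulator of vesicle release, at 0.049. That count was 10 without MSUS male 6 (median -0.0074), 18 without Con male 5 (0.060) and 16 without both (0.022). In libraries 7 to 12 and 19 to 24 the median was -0.072 and 0.12. Of 13 GABA-A receptor subunits 10 lay above 0 (median 0.064), and of 10 AMPA and NMDA receptor subunits 7 (median 0.027). For these lists in turn it was 9 (0.016) and 6 (0.0037) without MSUS male 6. Without Con male 5 it was 7 (0.050) and 9 (0.028). Of 17 immediate early genes 14 lay above 0, with a median of 0.11. Fos, the activity marker, ranged from 190 to 427 normalized counts in Con (median 276) and from 205 to 746 in MSUS males (median 294), and without MSUS male 6, the highest, 6 of the 17 lay above 0 with a median of -0.046. Without Con male 5 it was 13 (median 0.13). Npas4, an activity-dependent transcription factor, had -0.075 (95% interval -0.65 to 0.50).

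Glial and metabolic lists lay close to 0. All 12 mature oligodendrocyte genes lay above 0, with a median of only 0.022, and without MSUS male 6 the count was 6 of 12. It was 12 of 12 without Con male 5 (median 0.071) and without both (0.049). Mbp, a myelin protein gene, had 0.0069 (95% interval -0.17 to 0.18). Of 86 nuclear oxidative phosphorylation genes 75 lay above 0 (median 0.030), and without MSUS male 6 it was 36 (median -0.0064). It was 78 without Con male 5 (0.049) and 61 without both (0.010). Their medians within the sets were -0.049 and 0.11. Of the other glial markers, Gfap of astrocytes had -0.21 (-0.55 to 0.13) and Cx3cr1 of microglia 0.043 (-0.076 to 0.16). Astrocyte, microglia and endothelial lists had medians of -0.014, 0.027 and -0.015.

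Of the 488 distinct genes tested in the 30 lists, 1 higher and 1 lower in MSUS males had an unadjusted p under 0.05 (0.205% each), against 0.324% and 0.599% of all genes. They were Btaf1, among 31 tested genes of transcription start and mediator complexes (22 above 0, median 0.020), and Rpl36al among 80 cytosolic ribosomal protein genes (52 above 0, median 0.0078). Rpl36al had 23.5 normalized counts in MSUS and 31.1 in Con males on average and has near-identical copies, so its count is uncertain.

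In the female animals of the same study, with no term for estrous stage, 5156 of 20571 genes passed the threshold between MSUS and Con by the same test (25.1%). The male values did not follow them. Of the 2688 genes higher in MSUS females and tested in males, 38.8% were also higher in MSUS males, with a median log2 fold change of -0.019 in males against 0.44 in females. Of the 2456 lower in MSUS females, 31.1% were lower in MSUS males (median 0.022 against -0.19). The male 95% interval left out the female value for 2232 and 1906 of these genes. These genes were picked by their female values, and the error of the female value is not counted, so both counts run high. They are no test of a difference between the sexes, which is given below. With the no-gene share as a covariate the female count was 0 (1174 at an unadjusted p under 0.05). That share ranged from 31.0% to 34.8% in Con and from 36.3% to 43.9% in MSUS females. The ranges did not overlap, so in females the share and MSUS cannot be told apart, and the fit cannot say which of them the calls follow.

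Males were measured with somewhat less precision than females. Over 14124 genes with intervals in both, the median standard error was 0.074 in males and 0.064 in females, and it was larger in males for 69.4% of genes. The common biological coefficient of variation was 0.160 in males and 0.141 in females, and the median absolute log2 fold change 0.035 and 0.11. Across these genes r between the male and female log2 fold changes was -0.37 and rho -0.30, given as a description over genes that are not independent.

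The test of the difference between the sexes itself, the group-by-sex interaction over 24 animals, had 0 of 21500 genes past the threshold (0%, smallest adjusted p = 0.200 by edgeR's quasi-likelihood test), with 4031 at an unadjusted p under 0.05 (18.7%). DESeq2 had 390 past it. A single male moved that count. Without MSUS male 1 the interaction had 3031 genes past the threshold, and without each of the other males 0.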

How the data were processed

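Of the 24 sequenced mice, the 12 males were compared. The authors mapped reads to mm10 with STAR, using GENCODE M15, and deposited STAR's raw read pair counts for each gene in 3 columns (both strands together, and each strand). The sense column was used without the 4 rows that name no gene. The authors' own test was DESeq2, with estrous cycle status in their model of the females. No term for estrous stage was used here. STAR 2.6.1b is named in the submitters' processing notes. Pairs with several mapping places are not counted by STAR, which lowers counts of near-identical genes. Strand was kept, so antisense partners were counted apart. Names and positions came from GENCODE M21 on GRCm38, which matched 52489 of 52636 identifiers.

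Genes were filtered with filterByExpr (minimum count 10), normalized by TMM and tested with edgeR 4.0.16 (quasi-likelihood, robust) in R 4.3.3, with a Benjamini-Hochberg threshold of 0.10. Standard errors were the absolute log2 fold change over the square root of F, with none given where F was under 0.0001. Some alternatives were added after seeing the data (the group-by-set term, and leaving out Con male 5 with MSUS male 6). The others used DESeq2 1.42.0, limma 3.58.1, sva 3.50.0, the covariates named in the text and each male left out. Library measures were tested by exact permutation (scipy 1.17.1). The procedure was tested on simulated counts drawn for each gene separately. The spread that genes share in the real males was not part of that simulation. No pair of libraries within a group agreed within sampling noise (lowest chi-square per gene 6.66).

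Genes named are, among those with a mean of at least 100 normalized counts, the 12 with the smallest p in each direction and the smallest-p member of most lists, plus a fixed set of receptors, peptides, stress and glial genes (where Th, Slc6a3 and Xist need no minimum). Others are marked as chosen after their values were seen or are list members used as examples. Members, lists and tests were chosen with earlier results of these data known. Some genes that the rule names are not reported here.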

Additional observations from a re-analysis of the deposited data

Results flagged for a closer look

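In 218 groups of 6 males (named genes, library measures and list levels), Dixon's ratio set 17 values apart from the rest of their group (7.80%; chance gives about 1 in 20). The groups hold the same 12 males, and lists include named genes. They are thus not independent, and the share cannot be weighed against chance. MSUS male 6 accounted for 12 of the 17 values, which in part repeat each other. Its high values were 6356 normalized counts of Ide, 1871 of Tmem19, 5311 of Gria4, 1317 of Bdnf, 746.3 of Fos and 1692 of Npas4. Its low values were 4184 of Drd2 and 4852 of Pdyn. On the scale of mean log2 level relative to Con males, it stood apart at -0.67 for direct-pathway, -0.72 for indirect-pathway and -0.44 for dopamine signalling genes, and at 0.77 for immediate early genes.

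Of the Con males, male 1 stood apart for Lyz2 (135 normalized counts, the lowest), male 4 for Plekhh2 (911.5, the lowest), and male 6 for Shisa2 (268, the lowest) and Zic2 (789.5, the highest). Con male 5 stood apart at -0.19 for the mean log2 level of opioid signalling genes.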

How the results depend on the processing

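No alternative that kept both library sets gave a gene past the threshold, including DESeq2, limma-voom, an adjusted p under 0.05, the replicate block and each male left out (0 in every fit), while libraries 7 to 12 alone gave 1. Counts at an unadjusted p under 0.05 were 680 without a filter on low counts, 304 with DESeq2, and 171 to 397 with a male left out, the latter without MSUS male 1. No pairing of the males by replicate number was seen, although so few animals cannot exclude one. Deviations of same-numbered males correlated between -0.39 and 0.27, and 1 of 6 Con males correlated best with its own number. The replicate block gave 153 genes at an unadjusted p under 0.05 against 191 without it. The interaction had 390 genes with DESeq2, 0 with the replicate block and between 0 and 3031 with a male left out. The female count was 0 with the no-gene share as a covariate, which in females cannot be told apart from MSUS. Of 1584 refits of 72 named genes with both library sets, 1551 kept their direction. Most of these genes were named for a small p over the same males, and the refits share most animals. A kept direction was thus largely fixed by that choice, and fits of each library set alone are not among them. With the no-gene share as a covariate Ddx3y had 0.0019, Oxtr -0.16 and Mbp -0.021, and with the cortical score Oxtr -0.0012 and Mbp -0.0019. With a male left out, log2 fold changes crossed 0 for 11 genes: from -0.0034 to 0.10 for C1qb, -0.26 to 0.0040 for Kl, -0.018 to 0.0065 for Ddx3y, -0.18 to 0.029 for Penk, -0.23 to 0.0094 for Pdyn, -0.025 to 0.046 for Nr3c1, -0.19 to 0.34 for Oxtr, -0.16 to 1.47 for Bdnf, -0.042 to 0.49 for Fos, -0.34 to 0.031 for Npas4 and -0.025 to 0.064 for Mbp. MSUS male 6 was left out for 1 of the limits of Kl, Penk, Pdyn, Nr3c1, Oxtr, Bdnf, Fos and Npas4. Without both Con male 5 and MSUS male 6, a choice made after seeing the data, Nr3c1 had -0.014 and Fos -0.054. Without MSUS male 6 list medians changed sign for cortical (-0.26), immediate early (-0.046), GABAergic interneuron (-0.037) and Klf genes (-0.028), among others. The cause was not tested.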

Other observations

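Among genes with a mean of at least 100 normalized counts, picked here after their values were seen, the largest absolute log2 fold changes belonged to genes with a very wide spread. Igfn1 ranged from 10.2 to 223 normalized counts in Con males (median 47.1) and from 19.9 to 617 in MSUS males (median 103), with a log2 fold change of 1.50 (95% interval -0.43 to 3.42). Adcyap1, the precursor of the neuropeptide PACAP, ranged from 11.5 to 417 in Con and from 12.4 to 1081 in MSUS males (1.18, interval -1.12 to 3.48). Ngfr, the low-affinity neurotrophin receptor, ranged from 62.6 to 1243 in Con and from 60.9 to 305 in MSUS males (-1.10, interval -2.95 to 0.75). The ranges of the groups overlapped for each of these genes.

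Gm43305, the non-coding transcript on chromosome 14 next in likeness to Ide after Btaf1 and Fgfbp3, ranged from 1.11 to 152 normalized counts in Con males (median 53.2) and from 100.2 to 235 in MSUS males (median 136). Its log2 fold change was 1.21 (95% interval -0.11 to 2.53, unadjusted p = 0.0699), with 2.26 in libraries 7 to 12 and 0.73 in libraries 19 to 24.

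Lists with no account above had 0 members past the threshold. DNA methylation genes had 6 of 14 above 0 (median -0.0036), the leading genes of the nuclear estrogen receptor beta network 4 of 5 (0.019), genes of X inactivation 4 of 8 tested (-0.0020; the study picked both lists from its comparison of the females), Klf genes 10 of 14 (0.049), Y-linked genes 1 of 4 (-0.019), nuclear long non-coding RNAs 9 of 10 (0.027), GABAergic interneuron genes 6 of 9 (0.12), oligodendrocyte precursor genes 5 of 9 (0.012), choroid plexus and ependyma genes 2 of 4 (0.020) and lateral septum genes 3 of 5 (0.082).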
